A study of Mus musculus with 13 samples.

Results

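The genes described here are the enzymes and regulators with which a cell makes cholesterol and fatty acids. They are 30 listed gene symbols; the rule uses no measured value, though the list was drawn up with earlier results of these data known. All 30 were among the 28183 genes of the kidney table, and 17 were among the 2016 genes of the table for cultured cells. By role, 18 are enzymes of the route from acetyl-CoA through squalene to cholesterol, 6 control that route or move sterol in the cell, and 6 make, lengthen or desaturate fatty acids.

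Cholesterol is made by the mevalonate pathway. Its enzymes are switched on together by the transcription factor SREBP2, encoded by Srebf2, while SREBP1, encoded by Srebf1, mainly drives fatty acid synthesis. Both precursors sit in the endoplasmic reticulum membrane bound to the escort protein SCAP, and the INSIG proteins hold that complex there while sterol is plentiful. When sterol falls, SCAP carries the precursors to the Golgi apparatus for cleavage, and the freed factors bind sterol regulatory elements in the promoters of their targets, often next to a CCAAT box bound by NF-Y.

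The study measured RNA in whole mouse kidneys of 2 models of polycystic kidney disease and in a kidney cell line, all by RNA sequencing. The first model carried a floxed Pkd1 allele with KSP/Cre, which is active in kidney tubule cells, and was sampled at postnatal day 10 beside KSP/Cre-negative controls. The second carried a floxed Pkd2 allele with Pkhd1/Cre, active mainly in collecting ducts, and was sampled at postnatal day 20 beside Cre-negative controls. All of these mice were C57BL/6, with 2 libraries in each of the 4 groups. The cells were mIMCD-3, a mouse inner medullary collecting duct line, transfected at 10 nM for 48 h with a control gapmer (2 libraries) or with a gapmer against the noncoding RNA Hoxb3os (3 libraries); a gapmer is an antisense oligonucleotide that directs cleavage of its target RNA. The labels do not say whether libraries of a group came from separate animals or cultures, so every p-value measures the spread between these libraries, which may be technical. In the samples used as Pkd2 knockouts the title carries the word WT, while genotype and description give Cre-positive knockouts, and the groups follow the latter. Model, driver and age change together between the 2 kidney experiments and cannot be told apart.

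Values are scaled read counts, reads per gene divided by one factor per library, and are compared for one gene at a time. The kidney libraries held 30658346 to 94429151 reads, and the fewest reads behind any value of the 30 genes were 121, for Mvd. Gene-level Pkd1 was 31.1 and 22.7 in day 10 controls and 24.1 and 26.0 in Pkd1 knockouts, which overlap, and Pkd2 was 69.0 and 61.2 in day 20 controls and 50.7 and 53.3 in Pkd2 knockouts. Reads from exons outside the floxed ones and from cells without Cre are counted in these values, so they do not check the labels. In whole kidney, fewer cells of a type and less RNA per cell cannot be told apart. One control library stood apart in a way that touches these genes. The summed value of 8 markers of adrenal cortex, a tissue that makes steroid from cholesterol, was 148.9 in Pkd2 control replicate 2, against 4.11 in replicate 1 and 0.477 to 1.75 in the other 6 kidney libraries. Star, which moves cholesterol into mitochondria, was 35.9 there and at most 1.30 elsewhere, and Hsd3b1 was 63.5 there and at most 1.51 elsewhere. The 14 fat markers summed to 485 in that library and to 124 to 354 in the others. Results of the Pkd2 model and of the control comparison are therefore also given without it.

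Promoter sequence shows what the sterol enzymes share on the DNA side. RefSeq start sites on GRCm38.p6, the build of the files (mm10), were matched by symbol for 24 of the 30 genes, and each window ran from 250 bases before to 50 after the start. Fdft1, Fdps, Sqle, Stard4, Scd1 and Scd2 had no window in the table. A gene with several starts counts as holding a motif if any of its windows does. The letters CCAAT, read on both strands, were found in 14 of 15 sterol enzymes with a window and in 20 of the 24 genes, against 41.1% of 27025 genes with a window and 42.8% of the 1433 cell-table genes with one. The GC box letters GGGCGG were found in 20 of the 24, against 38.2% of all genes and 73.7% of those in the cell table. The sterol regulatory element letters TCACNCCAC, as one strict spelling, were found in 1 of the 24, Hmgcs1, and in 1.44% of all genes. A match is a description of the letters and no match says nothing about binding.

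The 250 bases before the start are printed for 5 genes. Hmgcs1 is shown for its sterol element, Mvd as the gene with the highest rise in the cells, Ebp as the gene called in both kidney models, Sc5d as an enzyme called in neither, and Acaca as the 1 gene of the 17 that was lower in the cells. Each is in lower case, 5′ to 3′ on the strand of its gene, with TCACNCCAC and CCAAT matches in capitals, on either strand, and GGGCGG left unmarked. None of the printed bases overlaps an exon in GENCODE M21. The Hmgcs1 window lies at chr13:119690101-119690350 on the plus strand, Mvd at chr8:122443423-122443672 on the minus strand, Sc5d at chr9:42264301-42264550 on the minus strand and Ebp at chrX:8193513-8193762 on the minus strand. The Acaca window, at chr11:84195188-84195437 on the plus strand, lies in an intron of the longer GENCODE gene model, because the RefSeq start used is inside it.
Hmgcs1: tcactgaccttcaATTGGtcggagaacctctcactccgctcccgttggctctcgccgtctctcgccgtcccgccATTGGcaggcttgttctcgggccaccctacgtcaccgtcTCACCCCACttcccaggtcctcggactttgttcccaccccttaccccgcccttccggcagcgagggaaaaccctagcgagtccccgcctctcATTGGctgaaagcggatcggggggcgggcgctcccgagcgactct
Mvd: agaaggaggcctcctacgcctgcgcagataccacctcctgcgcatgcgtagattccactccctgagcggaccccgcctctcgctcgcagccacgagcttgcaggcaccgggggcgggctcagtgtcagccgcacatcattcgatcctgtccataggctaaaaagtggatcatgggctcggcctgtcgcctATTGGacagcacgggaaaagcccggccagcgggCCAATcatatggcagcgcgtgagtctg
Sc5d: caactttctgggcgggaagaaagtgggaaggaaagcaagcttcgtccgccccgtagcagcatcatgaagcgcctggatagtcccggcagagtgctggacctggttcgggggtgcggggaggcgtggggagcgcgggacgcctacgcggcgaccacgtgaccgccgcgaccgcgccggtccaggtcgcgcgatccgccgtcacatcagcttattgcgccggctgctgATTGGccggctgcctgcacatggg
Ebp: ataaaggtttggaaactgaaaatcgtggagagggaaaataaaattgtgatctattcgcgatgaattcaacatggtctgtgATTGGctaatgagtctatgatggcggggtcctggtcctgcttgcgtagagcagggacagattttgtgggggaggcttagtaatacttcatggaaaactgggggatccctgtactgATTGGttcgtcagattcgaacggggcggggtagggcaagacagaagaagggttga
Acaca: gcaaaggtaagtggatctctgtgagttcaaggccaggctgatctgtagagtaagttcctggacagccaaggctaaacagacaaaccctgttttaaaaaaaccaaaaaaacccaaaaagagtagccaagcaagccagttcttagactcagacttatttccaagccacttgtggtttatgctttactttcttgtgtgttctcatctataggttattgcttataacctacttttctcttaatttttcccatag
Hmgcs1 carries CCAAT letters 3 times before its start, at -237, -176 and -45 counted from the start site, and the sterol element at -137. Mvd carries them at -60 and -27, Ebp at -170 and -55, and Sc5d at -24. Acaca carries none of the 3 motifs in this window, which lies inside its gene model and may not be its promoter. The absence of the letters there therefore says nothing about the promoter of Acaca. Of the 6 fatty acid genes 4 had a window, and CCAAT was found in 2 of them. The 4, and the 24 above, include this Acaca window.

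In mIMCD-3 cells 13 of the 18 sterol enzymes were in the cell table. All 13 were modestly higher after the Hoxb3os gapmer, by 12.1% to 29.4% of the control mean. Pmvk, Fdps, Tm7sf2, Ebp and Dhcr7 are not in this table. Of the 4 fatty acid enzymes in it, Fasn, Acly and Scd2 were higher and Acaca was lower by 16.5%. None of the 6 regulators is in this table, which holds 2016 genes that the authors selected at an adjusted p below 0.05 on these same 5 libraries. The direction and the call of each listed gene are therefore no independent evidence, and limma called 2015 of the 2016 genes here, 100% after rounding. Of all listed genes 44.4% were called higher and 55.6% lower. The 17 genes had a median log2 change of 0.20, against -0.14 over all 2016. DESeq2 on recovered reads moved the median of all 2016 up by 0.10, to -0.04, and that of the 17 to 0.31. DESeq2 and edgeR scaling use one factor per library, which moves all genes nearly alike, so the gap between these 2 medians could hardly change with them. Quantile scaling is free of that limit, and with it the medians were 0.26 for the 17 and -0.11 for the table. Of the 17, 16 were above 0 under each scaling but the quantile one, where 15 were.

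In the early steps, Hmgcs1 was 8848 and 8310 with the control gapmer and 9804, 9424 and 9917 with the Hoxb3os gapmer (log2 change 0.18 ± 0.04 SE, adjusted p 0.00037, limma over the 2016 genes). Its product, HMG-CoA synthase, joins acetyl-CoA to acetoacetyl-CoA. Acat2 was 3816 and 3608 with the control gapmer and 4193, 4183 and 4111 with the Hoxb3os gapmer, and this thiolase supplies the acetoacetyl-CoA. Mvk was 812 and 833 with the control gapmer and 936, 1024 and 939 with the Hoxb3os gapmer, and mevalonate kinase adds the first phosphate. Mvd was 1353 and 1312 with the control gapmer and 1646, 1858 and 1668 with the Hoxb3os gapmer (log2 change 0.37 ± 0.06 SE, adjusted p 2.3e-06). Mvd, the decarboxylase that forms isopentenyl diphosphate, had the highest rise of the 17, 29.4%, and its replicate 2 after the Hoxb3os gapmer was the highest library. Idi1 was 6610 and 5947 with the control gapmer and 7375, 6875 and 7404 with the Hoxb3os gapmer, and this isomerase forms the allylic partner of that unit. The groups did not overlap for any of these 5 genes.

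From squalene onward, the treated libraries again lay above both controls. Fdft1 was 2531 and 2394 with the control gapmer and 2934, 2837 and 2874 with the Hoxb3os gapmer, and squalene synthase commits the pathway to sterols. Sqle was 4629 and 4479 with the control gapmer and 5060, 5306 and 5120 with the Hoxb3os gapmer (log2 change 0.18 ± 0.04 SE, adjusted p 0.00048); squalene epoxidase adds the oxygen needed for ring closure. Lss was 4717 and 4640 with the control gapmer and 5583, 5704 and 5623 with the Hoxb3os gapmer (log2 change 0.27 ± 0.04 SE, adjusted p 2e-06). Lanosterol synthase closes the rings, and its 5 values had a control SD of 54.6 and a treated SD of 61.7 around a rise of 20.5%. Cyp51 was 4172 and 3791 with the control gapmer and 4868, 4557 and 4669 with the Hoxb3os gapmer, and this P450 takes off the first methyl group of lanosterol.

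Enzymes of the demethylation and late steps that are in the cell table were higher as well. Msmo1 was 4619 and 4055 with the control gapmer and 5600, 5253 and 5490 with the Hoxb3os gapmer (log2 change 0.33 ± 0.05 SE, adjusted p 3.8e-07). Msmo1, Nsdhl and Hsd17b7 act in turn, by oxidation, decarboxylation and reduction of a ketone, to remove the remaining methyl groups. Nsdhl was 1460 and 1309 with the control gapmer and 1640, 1639 and 1631 with the Hoxb3os gapmer. Hsd17b7 was 830 and 722 with the control gapmer and 960, 989 and 930 with the Hoxb3os gapmer. Sc5d, which introduces a late ring double bond, was 1775 and 1672 with the control gapmer and 2026, 1903 and 1941 with the Hoxb3os gapmer. In each of the 13 enzymes all 3 treated libraries lay above both controls, where the same holds for 44.4% of all listed genes.

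Of the fatty acid enzymes, Acly, which makes cytosolic acetyl-CoA from citrate, was 21845 and 21428 with the control gapmer and 23058, 24188 and 23329 with the Hoxb3os gapmer, a rise of 8.73%. Fasn was 21497 and 22110 with the control gapmer and 22853, 26076 and 24541 with the Hoxb3os gapmer (log2 change 0.17 ± 0.05 SE, adjusted p 0.0015); fatty acid synthase builds palmitate. Acaca, the carboxylase that makes malonyl-CoA and so the step between them, went the other way. Acaca was 8449 and 8722 with the control gapmer and 7093, 7218 and 7194 with the Hoxb3os gapmer (log2 change -0.26 ± 0.04 SE, adjusted p 2e-06). All 3 treated Acaca values lay below both controls, where 55.5% of listed genes show that. Scd2, a stearoyl-CoA desaturase, was the 1 gene of the table that limma did not call. Scd2 was 75455 and 72226 with the control gapmer and 77236, 78936 and 80845 with the Hoxb3os gapmer (log2 change 0.10 ± 0.05 SE, adjusted p 0.056). Its log2 change was -0.05 under quantile scaling, so its direction depends on the scaling.

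Of 33 further genes of fatty acid and glycerolipid synthesis, 5 were in the table, with Fads3, Aacs, Dgat1 and Fads2 higher, at 0.30, 0.23, 0.18 and 0.12, and Lpin3 lower at -0.29. The liver X receptor list had 1 gene in the table, Abca3, at -0.14. These counts describe a table selected on these libraries, as above.

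**Figure D1:**
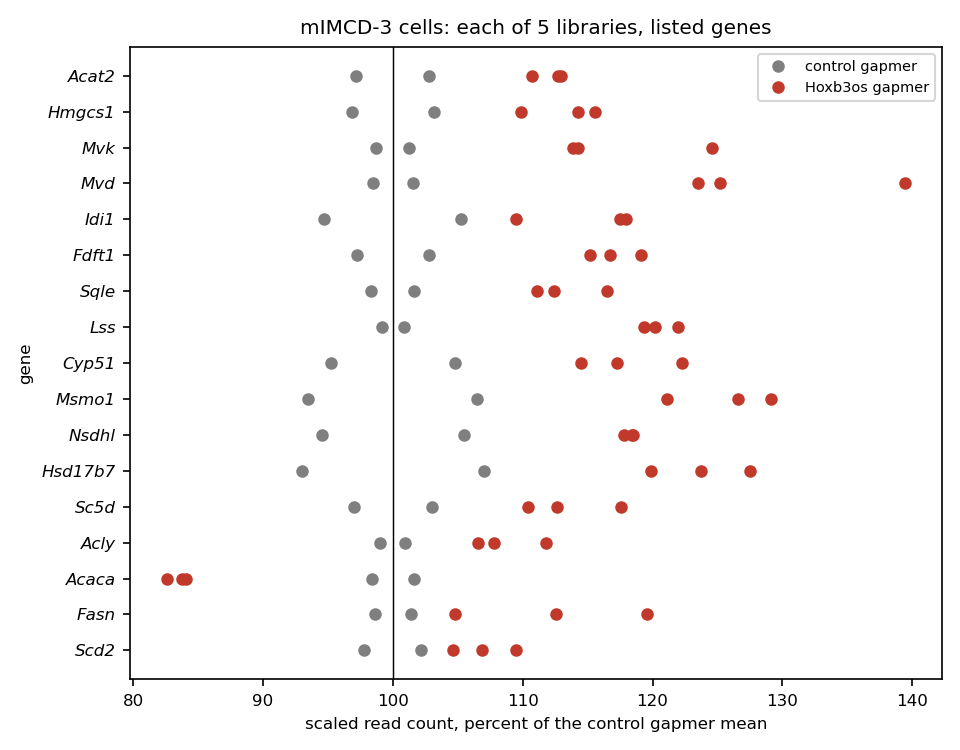
Each point is 1 mIMCD-3 library, as percent of the control gapmer mean of that gene (x axis), for the 17 genes of the set that are in the cell table (y axis); grey is the control gapmer and red the Hoxb3os gapmer. The 3 red points lie to the right of both grey points in 16 genes and to the left in Acaca.

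In the kidneys few of the 30 genes passed the test in the knockouts, and those that did were sterol enzymes that fell. The filter on low values kept all 30 genes, and limma tested them among 14637. In Pkd1 knockouts 1 of 30 was called, Ebp, lower, and none was called higher, where 10.6% of all genes were called, 5.48% lower and 5.11% higher. In Pkd2 knockouts 4 of 30 were called, Ebp, Tm7sf2, Lss and Acat2, all lower, where 17.7% of all genes were called, 8.13% lower and 9.54% higher. The shares called, 3.33% and 13.3% of the 30, lie below the 10.6% and 17.7% of all genes. Without Pkd2 control replicate 2, none of the 30 was called in the Pkd2 model, where 4.57% of all genes were, and without Pkd2 knockout replicate 2 also none, where 7.29% were. Without Pkd2 control replicate 1, Tm7sf2 alone was called, where 5.55% of all genes were, and without Pkd2 knockout replicate 1 the count was 5, with Scd2 among them, higher, where 29.6% were. With the Pkd2 libraries fitted alone none was called either, where 9.75% of all genes were. The mitochondrial share of reads was also lower in the knockouts, at 22.05% and 22.5% against 27.4% and 38.7% in day 10 controls and at 34.7% and 30.1% against 41.4% and 41.3% in day 20 controls. With the mitochondrially encoded genes left out and the values rescaled, 1 and 4 of the 30 were called, as with them, where 10.6% and 17.7% of all genes were.

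The median log2 change of the 30 genes was -0.12 in Pkd1 knockouts and -0.36 in Pkd2 knockouts, against -0.00 and -0.01 over all genes tested. In the Pkd2 model 24 of the 30 changes were below 0, where 50.7% of all genes were. Without Pkd2 control replicate 2, the library with adrenal markers, the Pkd2 median was -0.13 with 19 of 30 below 0; without replicate 1 of that group it was -0.52. Leaving out the Pkd2 knockouts in turn gave -0.23 with 19 of 30 below 0 without replicate 1 and -0.46 with 26 below 0 without replicate 2. The groups did not overlap for 13 genes lower and 2 higher in Pkd2 knockouts, where 30.9% and 31.9% of all genes did so, and for 10 lower and 5 higher in Pkd1 knockouts, where 29.2% and 29.1% did. The Pkd1 median was -0.00 without Pkd1 knockout replicate 2 and -0.32 without replicate 1, and 25 of the 30 genes were lower in replicate 2 of that group than in replicate 1.

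**Figure D2:**
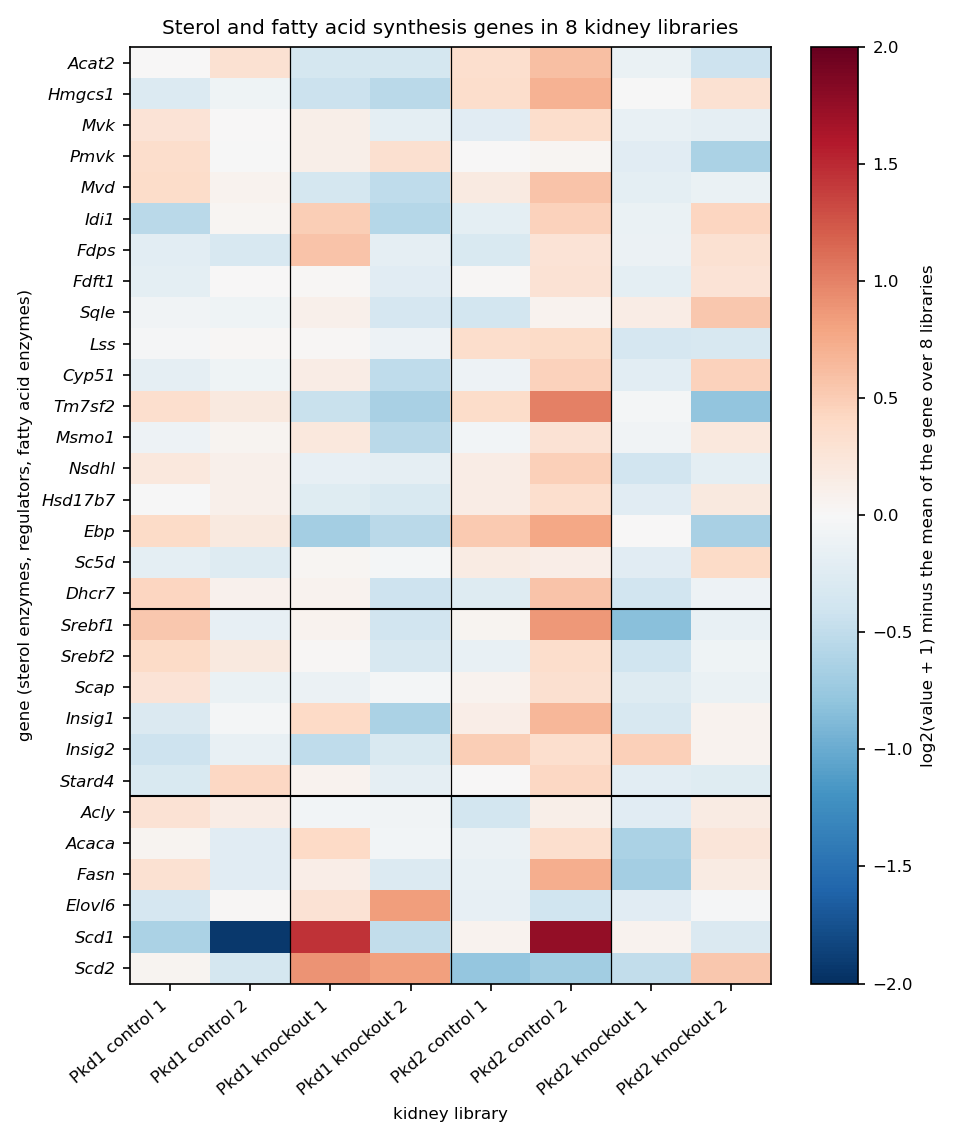
Heat map of the 30 genes (rows, in blocks of sterol enzymes, regulators and fatty acid enzymes) in the 8 kidney libraries (columns); color gives log2(value + 1) minus the mean of that gene over the 8 libraries. The column of Pkd2 control 2 is mostly red and is the highest library for 19 of the 30 genes, and Scd1 has the widest range.

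Pkd2 control replicate 2 was the highest of the 8 libraries for 19 of the 30 genes, or 63.3%, against 15.1% of all genes tested. Within that group 27 of the 30 genes were higher in replicate 2 than in replicate 1, by a median of 0.40 on the log2 scale, against 0.01 over all genes, of which 51.4% were higher. By role, 17 of 18 sterol enzymes, 5 of 6 regulators and 5 of 6 fatty acid enzymes were higher there. The adrenal and fat markers are highest in this same library, and their part in these values was not tested.

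**Figure D3:**
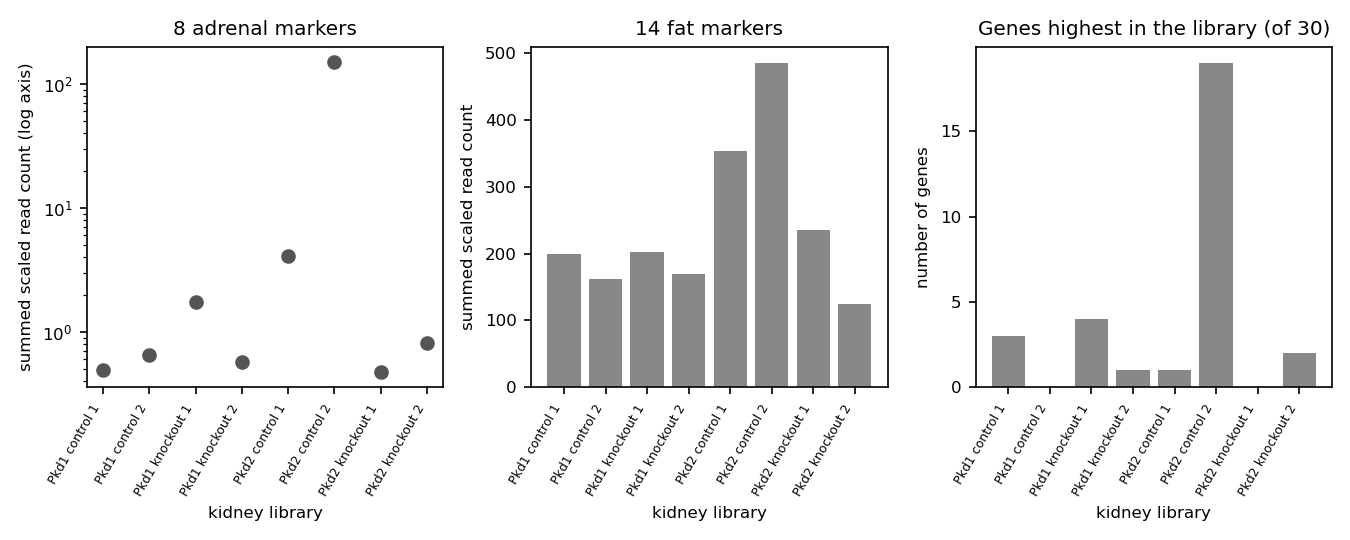
For each of the 8 kidney libraries (x axis), the left panel plots the summed scaled read count of 8 adrenal markers on a log axis, the middle panel that of 14 fat markers on a linear axis, and the right panel the number of the 30 genes that are highest in that library. Pkd2 control 2 is the highest in all 3 panels, at 148.9, 485 and 19.

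Ebp (ENSMUSG00000031168.12, chrX:8185329-8193512 on the minus strand of mm10), the isomerase that moves a double bond within the sterol ring, was the gene called in both models. Ebp was 26.8 and 23.3 in day 10 controls, 12.3 and 13.6 in Pkd1 knockouts, 29.6 and 35.6 in day 20 controls and 20.3 and 12.5 in Pkd2 knockouts. Both knockouts lay below both controls in each experiment, with log2 changes of -0.90 ± 0.23 SE (adjusted p 0.04) and -0.98 ± 0.23 SE (adjusted p 0.021). Leaving out 1 library of the model kept its direction, with -0.80 as the smallest fall in the Pkd1 model, where the call was then lost each time (adjusted p 0.11 to 0.21), as it was without either Pkd2 control library, which share the fit. In the Pkd2 model it was -0.85 (adjusted p 0.16) without control replicate 2 and -0.65 (adjusted p 0.095) without knockout replicate 2, the smallest fall. Ebp is X-linked, and sex marker genes are not balanced over the libraries: summed Y-linked values were 149 to 183 in 4 libraries, 10.4 in Pkd1 control replicate 2 and at most 0.104 in 3, the Pkd2 controls and Pkd2 knockout replicate 2. Xist, a marker of female cells, was 416 in Pkd1 control replicate 2 and 25.3 and 27.7 in the Pkd1 knockouts, against 0.22 in Pkd1 control replicate 1. Pkd1 control replicate 2 and both Pkd1 knockouts thus held reads of both kinds of marker, and why was not tested. With a covariate for the Y-linked genes Ebp was at -1.06 (adjusted p 0.0085) and -1.28 (adjusted p 0.0055), and 3 of the 30 were called in the Pkd1 model, where 17% of all genes were, and 6 in the Pkd2 model, where 25% were.

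Tm7sf2 (ENSMUSG00000024799.12, chr19:6062821-6068373 on the minus strand of mm10), a sterol reductase that acts just after Cyp51, had the largest fall of the sterol enzymes in Pkd2 knockouts. Tm7sf2 was 8.50 and 7.65 in day 10 controls, 4.50 and 3.82 in Pkd1 knockouts, 8.73 and 14.2 in day 20 controls and 6.32 and 3.35 in Pkd2 knockouts. The Pkd2 knockouts lay below both controls, at a log2 change of -1.11 ± 0.29 SE (adjusted p 0.031), and replicate 2 of the day 20 controls was the highest library. Without that library the log2 change was -0.79 (adjusted p 0.22), and without Pkd2 knockout replicate 2 it was -0.73 (adjusted p 0.17). The Pkd1 knockouts also lay below their controls, at -0.82 ± 0.29 SE (adjusted p 0.11), which missed the threshold. Its annotated span overlaps Vps51 on the same strand, so reads of the pair may be shared.

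For Lss (ENSMUSG00000033105.10, chr10:76531588-76557138 on the plus strand of mm10) the replicates of each group lay close together. Lss was 14.1 and 14.6 in day 10 controls, 14.6 and 13.3 in Pkd1 knockouts, 18.6 and 19.0 in day 20 controls and 11.2 and 11.3 in Pkd2 knockouts. It fell in the Pkd2 model, at a log2 change of -0.70 ± 0.15 SE (adjusted p 0.015), and was -0.04 ± 0.15 SE (adjusted p 0.89) in the Pkd1 model, where the groups overlap. Without the adrenal-marked library it was -0.69 and not called (adjusted p 0.12). The difference between the models, 0.66 ± 0.21 SE (adjusted p 0.39), did not pass the test.

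Acat2 (ENSMUSG00000023832.11, chr17:12942890-12960747 on the minus strand of mm10), the thiolase at the head of the pathway, was 26.7 and 33.3 in day 10 controls, 20.7 and 20.6 in Pkd1 knockouts, 33.8 and 41.0 in day 20 controls and 24.1 and 19.8 in Pkd2 knockouts. The Pkd2 knockouts fell by 0.74 ± 0.19 SE (adjusted p 0.027) on the log2 scale, and without Pkd2 control replicate 2 the change was -0.60 (adjusted p 0.21). The authors' deposited adjusted p for Acat2 in the Pkd2 model, 0.204, does not pass 0.05. Pkd1 knockouts lay below both of their controls at -0.51 ± 0.19 SE (adjusted p 0.12). Nsdhl, next to the threshold in the Pkd2 model, was -0.60 ± 0.18 SE (adjusted p 0.051), and Mvd was -0.65 ± 0.20 SE (adjusted p 0.073) in the Pkd1 model and -0.53 ± 0.20 SE (adjusted p 0.097) in the Pkd2 model. The log2 changes of Nsdhl and Mvd in the Pkd2 model were -0.43 and -0.33 without Pkd2 control replicate 2. These 2 sterol enzymes were lower in both knockouts of each model than in both controls, though neither was called. Nsdhl is X-linked, as is Ebp, so the uneven sex marker genes described for Ebp apply to it too.

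Hmgcs1 was 67.6 and 77.4 in day 10 controls, 60.7 and 56.1 in Pkd1 knockouts, 106 and 133 in day 20 controls and 82.1 and 102 in Pkd2 knockouts. Hmgcs1 was not called in either model, at log2 changes of -0.31 ± 0.19 SE (adjusted p 0.35) and -0.37 ± 0.19 SE (adjusted p 0.21). The Pkd2 value was -0.21 without control replicate 2 and -0.22 without knockout replicate 1. Sqle was 21.6 and 21.3 in day 10 controls, 24.4 and 17.8 in Pkd1 knockouts, 17.3 and 23.8 in day 20 controls and 25.3 and 33.3 in Pkd2 knockouts. Sqle lay higher in both Pkd2 knockouts than in their controls, at 0.50 ± 0.23 SE (adjusted p 0.16), the only one of the 18 sterol enzymes to do so, and its groups overlap in the Pkd1 model. It was 0.28 without Pkd2 control replicate 1 and 0.31 without Pkd2 knockout replicate 2. The other sterol enzymes, Mvk, Pmvk, Idi1, Fdps, Fdft1, Cyp51, Msmo1, Hsd17b7, Sc5d and Dhcr7, ranged from 5.42 to 28.0 in the 8 libraries and none was called in either model. Fdft1 overlaps Ctsb, Cyp51 overlaps Akap9 and Mvd overlaps Gm20388. As no source used here gives the strand setting of the counting, reads of these pairs may be shared. Ctsb, Akap9 and Gm20388 had kidney means of 107, 63.1 and 24.3. Fdft1, Cyp51 and Mvd ranged from 5.42 to 8.16, 13.7 to 28.0 and 2.56 to 6.51. Fdps overlaps the protein-coding gene RP24-394C15.7 (mean 3.07) on the same strand, so reads may be shared there too.

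**Figure D4:**
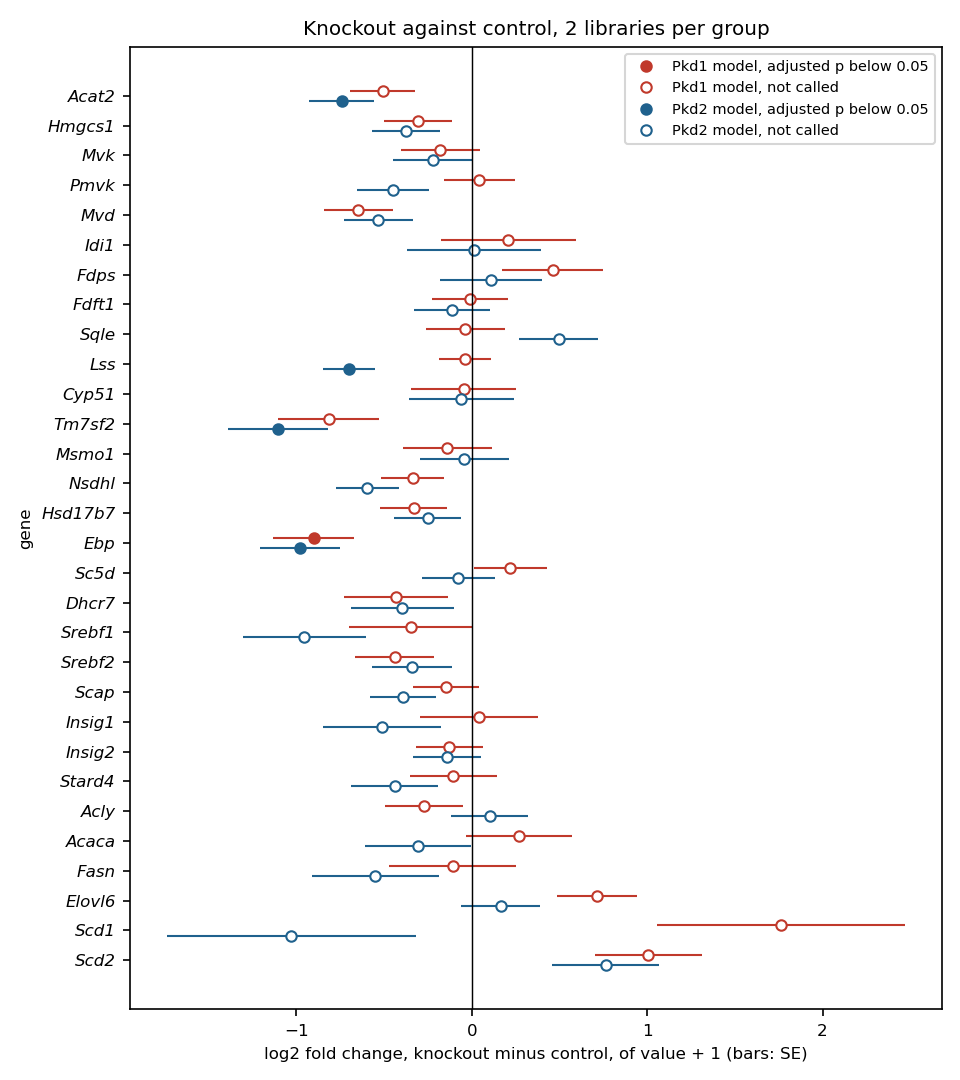
Log2 fold change, knockout minus control, of value + 1 (x axis, bars are SE from limma) for the 30 genes (y axis); red is the Pkd1 model at day 10, blue the Pkd2 model at day 20, and filled points passed an adjusted p of 0.05. The 5 filled points, Ebp in both models and Acat2, Lss and Tm7sf2 once, lie left of 0.

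None of the 6 regulators was called in either knockout. Srebf1 was 40.4 and 24.5 in day 10 controls, 28.8 and 20.9 in Pkd1 knockouts, 28.5 and 50.8 in day 20 controls and 14.9 and 24.6 in Pkd2 knockouts. The Pkd2 knockouts lay below both controls at -0.95 ± 0.35 SE (adjusted p 0.094), and Pkd1 knockouts overlapped their controls. Replicate 2 of the day 20 controls was the highest library, and without it the Pkd2 change was -0.55 (adjusted p 0.49), while without Pkd2 knockout replicate 1 it was -0.61. DESeq2 on recovered reads called Srebf1 lower in the Pkd2 model (adjusted p 0.024). Srebf2 was 17.5 and 15.1 in day 10 controls, 13.4 and 10.2 in Pkd1 knockouts, 11.7 and 17.03 in day 20 controls and 9.73 and 12.3 in Pkd2 knockouts. Srebf2 had a log2 change of -0.44 ± 0.23 SE (adjusted p 0.25) in the Pkd1 model and -0.34 ± 0.23 SE (adjusted p 0.33) in the Pkd2 model. The Pkd2 value was -0.09 without control replicate 2, -0.60 without control replicate 1 and -0.19 without knockout replicate 1, and the Pkd1 value was -0.26 without Pkd1 knockout replicate 2. Srebf1 overlaps Rai1 on the other strand.

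Scap was 18.1 and 13.5 in day 10 controls, 13.6 and 14.4 in Pkd1 knockouts, 15.7 and 18.8 in day 20 controls and 12.3 and 13.5 in Pkd2 knockouts. The escort gene Scap had log2 changes of -0.15 ± 0.19 SE (adjusted p 0.66) and -0.39 ± 0.19 SE (adjusted p 0.18) in the 2 models. Insig1 was 7.64 and 9.29 in day 10 controls, 12.9 and 5.76 in Pkd1 knockouts, 10.5 and 15.6 in day 20 controls and 7.46 and 10.1 in Pkd2 knockouts. Insig1 is itself a target of SREBP, and its value was highest in the adrenal-marked library. The log2 change of Insig1 in the Pkd2 model was -0.51, and it was -0.25 without that library, -0.78 without control replicate 1 and -0.32 without knockout replicate 1. Insig2 was 14.6 and 17.5 in day 10 controls, 13.5 and 15.6 in Pkd1 knockouts, 27.9 and 25.2 in day 20 controls and 27.7 and 20.7 in Pkd2 knockouts. For Insig2 knockouts and controls overlap in both models, at -0.13 ± 0.19 SE (adjusted p 0.71) and -0.14 ± 0.19 SE (adjusted p 0.65), but its day 20 libraries are all above its day 10 libraries. Stard4, which carries sterol between membranes, ranged from 23.2 to 38.9 and was not called.

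Of the fatty acid enzymes none was called in either model, and the 2 desaturases lie next to each other on chromosome 19, 87586 bases apart. Scd2 was 82.3 and 61.5 in day 10 controls, 147 and 140 in Pkd1 knockouts, 45.5 and 48.2 in day 20 controls and 56.0 and 115 in Pkd2 knockouts. Both knockouts were above both controls in each model, at log2 changes of 1.01 ± 0.30 SE (adjusted p 0.071) and 0.76 ± 0.30 SE (adjusted p 0.12). DESeq2 on recovered reads called Scd2 in both, with adjusted p of 0.012 and 0.026. Limma called it with the Y-linked covariate in both (adjusted p 0.03 and 0.041), in the Pkd1 model also with those libraries fitted alone (adjusted p 0.024) and without either Pkd2 knockout, and in the Pkd2 model without knockout replicate 1. Leaving out the Pkd2 knockout replicates in turn gave 1.28 without replicate 1 and 0.25 without replicate 2.

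Scd1 was 8.81 and 3.00 in day 10 controls, 40.7 and 9.82 in Pkd1 knockouts, 15.1 and 50.6 in day 20 controls and 15.0 and 11.4 in Pkd2 knockouts. Replicates are far apart in the Pkd1 knockouts and in the day 20 controls, while the groups do not overlap in either model. The log2 change was 1.76 ± 0.71 SE (adjusted p 0.15) in the Pkd1 model and -1.03 ± 0.71 SE (adjusted p 0.35) in the Pkd2 model, and the difference, 2.79 ± 1.00 SE (adjusted p 0.45), did not pass the test. The Pkd1 change was 0.79 without knockout replicate 1, 2.74 without knockout replicate 2 and 1.11 without control replicate 2. The Pkd2 change was -0.19 without control replicate 2 and -1.87 without control replicate 1. The authors' deposited table lists Scd1 as changed in both models, higher in Pkd1 knockouts and lower in Pkd2 knockouts, with control minus knockout log2 values of -2.09 and 1.31, and Tm7sf2 in the Pkd2 model with 1.25. By the adjusted p of the authors' deposited table, 7.94% of all genes pass in the Pkd1 model and 10.3% in the Pkd2 model.

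Fasn was 33.5 and 22.8 in day 10 controls, 29.6 and 22.1 in Pkd1 knockouts, 24.1 and 44.9 in day 20 controls and 16.3 and 30.04 in Pkd2 knockouts. Fasn overlapped between knockouts and controls in both models, at log2 changes of -0.11 ± 0.36 SE (adjusted p 0.88) and -0.55 ± 0.36 SE (adjusted p 0.32). Each Pkd2 library moved that value: it was -0.11 without control replicate 2, -0.99 without control replicate 1, -0.13 without knockout replicate 1 and -0.97 without knockout replicate 2. Elovl6, which lengthens palmitate, was 0.71 ± 0.23 SE (adjusted p 0.081) in the Pkd1 model with both knockouts above both controls, and it was not called. Acly and Acaca ranged from 107 to 168 and from 17.5 to 37.0 over the 8 libraries.

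**Figure D5:**
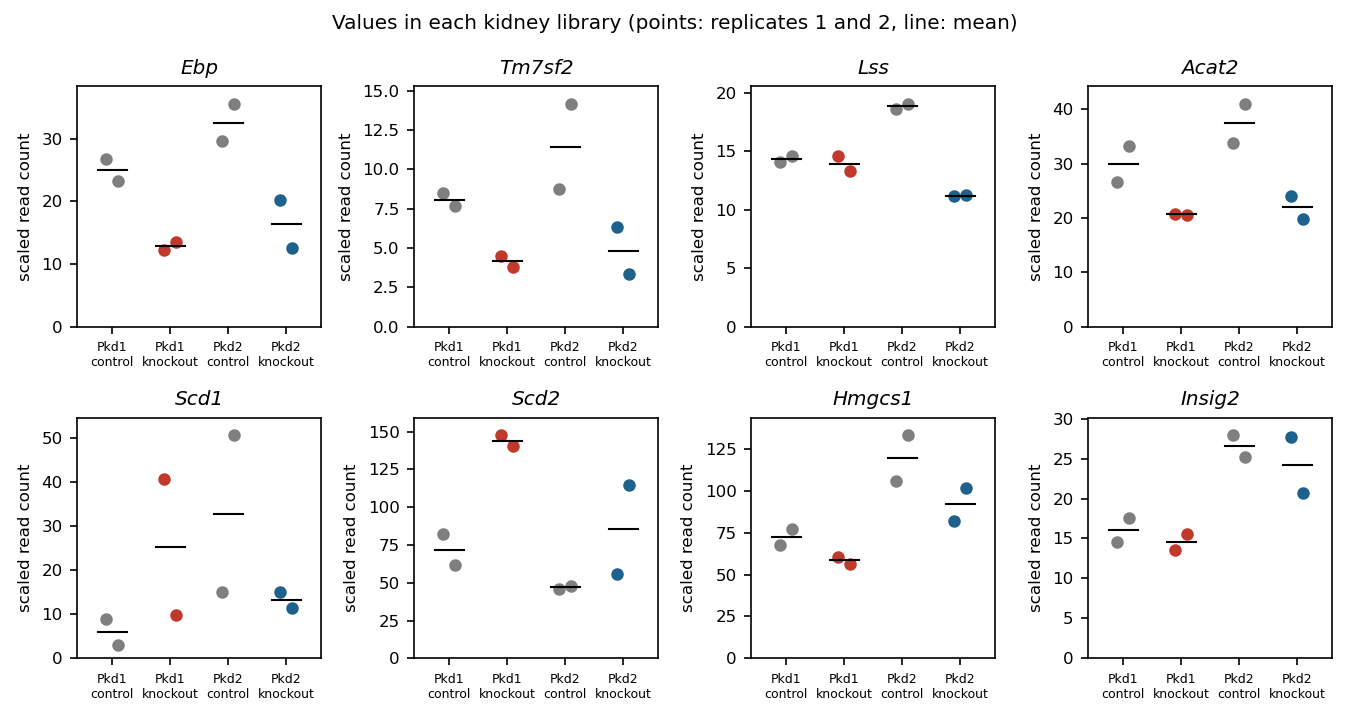
Scaled read count (y axis, from 0) of 8 genes in each of the 4 kidney groups (x axis), with replicates 1 and 2 as points and their mean as a line. Ebp and Acat2 lie lower in both knockouts than in their controls, Lss in the Pkd2 model alone, and Scd1 shows the wide replicate spread.

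No gene of the 30 differed between the 2 models at an adjusted p below 0.05, where 0.00683% of all genes did; 2 of the 30 had an unadjusted p below 0.05, and neither DESeq2 nor edgeR called any. The 2 control groups were also set against each other. This compares day 20 with day 10, but the floxed gene, Pkd2 against Pkd1, and the experiment differ too. Both control groups are Cre-negative. Of the 30, 2 were called higher at day 20, Hmgcs1 at a log2 change of 0.71 ± 0.19 SE (adjusted p 0.046) and Insig2 at 0.70 ± 0.19 SE (adjusted p 0.048), where 12.3% of all genes were called, 5.04% higher and 7.26% lower. The median was 0.22, with 11 genes not overlapping higher and 2 lower, where 31.1% and 31.2% of all genes did so. Without Pkd2 control replicate 2 the median was -0.01 and none was called, where 3.6% of all genes were, with Hmgcs1 then at 0.54 (adjusted p 0.31) and Insig2 at 0.77 (adjusted p 0.17). Leaving out any other of the 4 control libraries also left none called. This contrast shares its control libraries with the knockout contrasts, so the values are not independent of theirs.

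Of the 33 further genes of fatty acid and glycerolipid synthesis, 32 were tested, and 1 was higher and 6 lower in Pkd1 knockouts, 9 lower and none higher in Pkd2 knockouts, or 21.9% and 28.1%, against 10.6% and 17.7% of all genes. Of the 9, 2 were called without Pkd2 control replicate 2, Acacb at -1.45 and Thrsp at -1.73. Acss2, which makes acetyl-CoA from acetate, fell by 1.40 and 1.28 on the log2 scale in the 2 models, and without that library the Pkd2 change was -1.12 (adjusted p 0.076). It was 35.6 and 30.5 in day 10 controls, 11.1 and 12.7 in Pkd1 knockouts, 63.3 and 80.2 in day 20 controls and 35.8 and 22.9 in Pkd2 knockouts. Mogat2, a monoacylglycerol acyltransferase, had log2 changes of -2.22 and -1.44, Mlxipl, a carbohydrate-sensing transcription factor, -1.42 and -1.26, and Dgat2, which makes triglyceride, -1.32 and -1.33, each called in both models. The other falls called were Fads3 and Acsl1 in Pkd1 knockouts and Acacb, Thrsp, Gpam, Fads2 and Dgat1 in Pkd2 knockouts. Elovl7 was the 1 called higher, in Pkd1 knockouts. Thrsp values were low, at 0.69 and 0.15 in day 10 controls, 0.97 and 0.63 in Pkd1 knockouts, 3.64 and 7.50 in day 20 controls and 0.78 and 0.09 in Pkd2 knockouts.

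Of 27 further genes of sterol synthesis, uptake and SREBP control, 26 were tested, with 1 called lower in the Pkd1 model, 2 lower in the Pkd2 model and none higher in either, or 3.85% and 7.69%, against 10.6% and 17.7% of all genes. Acat1, a mitochondrial thiolase, was called in both, at log2 changes of -0.77 and -1.24, and Lpin1 in Pkd2 knockouts, at -0.81. Acat1 was the 1 of the 26 still called in the Pkd2 model without Pkd2 control replicate 2. Of the 7 liver X receptor genes Nr1h3 was called, lower, at -0.68 in Pkd2 knockouts, and not without that library (adjusted p 0.18). In the control comparison 6 of the 32 were higher at day 20, Acacb, Acss2, Gpam, Me1, Mlx and Thrsp, with none lower, where 5.04% of all genes were called higher and 7.26% lower. Also called higher were Lpin1 and Cyp27a1 of the 26 sterol genes and Nr1h3. Without that library Thrsp, at 1.73, and Nr1h3, at 1.65, were the 2 still called.

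Markers of other cells moved with the knockouts. Of 12 macrophage markers, 10 were called higher in Pkd1 and 11 in Pkd2 knockouts, where 5.11% and 9.54% of all genes were, and they summed to 45.1 to 53.4 in the 4 control libraries, 151 to 153 in Pkd1 knockouts and 246 to 293 in Pkd2 knockouts. Of 12 proximal tubule markers 10 were called lower in each model, where 5.48% and 8.13% of all genes were, and they summed to 2566 and 2723 in day 10 controls, 787 and 1015 in Pkd1 knockouts, 4246 and 5186 in day 20 controls and 2360 and 1490 in Pkd2 knockouts. In the Pkd2 model 11 macrophage markers and 1 proximal tubule marker were called without Pkd2 control replicate 2. Of 10 principal cell markers 4 and 5 were called higher, with none called in the Pkd2 model without that library, and they summed to 130 to 228 in the 4 control libraries, 262 and 459 in Pkd1 knockouts and 256 and 315 in Pkd2 knockouts. Of 7 liver markers 6 were tested, with 2 called lower in the Pkd1 model and 3 lower and 1 higher, Fgb, in the Pkd2 model. The 7 summed to 87.3 to 110 in the 4 control libraries, 39.4 and 48.4 in Pkd1 knockouts and 65.9 and 55.9 in Pkd2 knockouts. Serpina1a and Ttr made up most of these sums, with 48.4 and 50.9 of 105 in Pkd1 control replicate 1. Alb was 0.73 in that library, 18.2 and 11.7 in day 20 controls and 0.39 and 0 in Pkd2 knockouts. The part of these cells in the changes of the sterol and fatty acid genes was not tested. Fat markers, 14 genes, were 162 to 199 in day 10 controls and 169 to 202 in Pkd1 knockouts, and 354 and 485 in day 20 controls against 236 and 124 in Pkd2 knockouts. Lpl, Fabp4, Cd36 and Pnpla2 made up most of these sums, with 129, 102, 91.5 and 81.7 of 485 in Pkd2 control replicate 2. In Pkd1 knockouts 11 of the 12 tested changed above 0, and Lep alone was called, higher, where 5.11% of all genes were. Lpl was the 1 below 0, at -0.84 ± 0.26 SE. The Pkd2 median log2 change was -1.44, and -1.14 without Pkd2 control replicate 2. Ucp1, which defines brown fat, was 15.2 and 24.4 in day 20 controls and 1.71 and 0 in the Pkd2 knockouts.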

How the data were processed

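The submitters' processing notes name, for the kidneys, edgeR, RSEM 1.2.22, Cufflinks 2.2.1, STAR 2.4.2a and FastQC 0.11.2 with mm10, in no stated order, and for the cells Trimmomatic 0.32, STAR 2.4.2a, SAMtools 1.0 and DESeq2 1.12.3 with GRCm38. The authors deposited a signal per gene and library in both tables, reads divided by a factor per library. The authors also deposited log2 fold changes and p-values for each comparison, which were used as their own values only. The kidney signal came in steps of 1 read, so reads were recovered (92.9% to 95.0% of nonzero values whole within 0.02 of a read; the cell values were all whole), with sums of 30658346 to 94429151 in kidneys and 7474427 to 14353882 over the listed genes in cells.

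Tests were made with limma 3.58.1 (R 4.3.3) on log2(value + 1), keeping kidney genes of at least 1 in 2 libraries, 14637 of 28183, in a single fit of 4 groups with Benjamini-Hochberg adjustment over all of them, called below 0.05. Fold changes on this scale understate those of low genes. A separate fit covered the 2016 cell genes. Alternatives were edgeR 4.0.16 and DESeq2 1.42.0 on recovered reads, other scaling, pseudocount, filter and covariates, a replicate block and each library left out. The script was tested on simulated data. The members and lists were chosen with earlier results of these data known. 4 genes of the list of further sterol genes are not reported here; they were left out after their values had been seen, so the kidney counts of that list cover its other 27 genes, and its counts in the cells are not given. Values in every library are given for genes called in a contrast, in that contrast's experiment, and for 10 genes always: Srebf1, Srebf2, Scap, Insig1, Insig2, Hmgcs1, Sqle, Fasn, Scd1 and Scd2. Other genes are given by range. Promoter letters come from RefSeq on GRCm38.p6 and gene models from GENCODE M21.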

Additional observations from a re-analysis of the deposited data

How the results depend on the processing

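The labels give no pairing, and same-numbered libraries deviated apart (correlations -0.378, -0.049 and -0.102 in the Pkd1 model, the Pkd2 model and the cells); with the replicate number as a block 1 gene was called in the Pkd1 model (Scd1 in place of Ebp), 2 in the Pkd2 model, 0 in the control comparison and 16 in the cells. Crossing the numbers in the Pkd1 model, chosen after seeing the data, gave 0, 3 and 0 in the kidney contrasts. In the Pkd1 model, 1 of 30 genes was called and 0 without the filter, 4 with DESeq2, 3 with a Y-linked covariate and 3 with the libraries fitted alone; leaving out each library gave 0 to 3. In the Pkd2 model 4 were called, with 1 without the filter, 0 with the libraries fitted alone and 0 to 5 leaving out each library. In the control comparison 2 were called, with 0 without the filter, under quantile scaling and with the Y-linked covariate, and 0 to 2 leaving out each library. No alternative called a difference between the models, and the cells gave 16 or 17 under each. Insig1 in the control comparison reversed to -0.0033 with the crossed block and Scd2 in the cells to -0.050 under quantile scaling; the cause was not tested. With 2 libraries a group, a group left with 1 takes its spread from the other groups. The share of all genes called moved with the setting too. With the Y-linked covariate it was 17% in the Pkd1 model and 25% in the Pkd2 model, against 10.6% and 17.7% without a covariate. With the Pkd2 libraries fitted alone it was 9.75%. A shift in the count of the 30 is therefore not by itself a result about these genes. The share is not given here for DESeq2, quantile scaling, the fit without the filter, the Pkd1 libraries fitted alone or the replicate blocks. Counts under those settings cannot be set against a background. In the gene values 574 alternatives kept direction and call, 55 lost the call and 16 gained it. The 574 include the cells, selected on these same libraries, and kidney genes that stayed uncalled, so they do not measure how stable the calls are. All losses were of kidney calls. Ebp lost its call in 9 alternatives in the Pkd1 model and 5 in the Pkd2 model. Tm7sf2 lost it in 8, Acat2 in 6 and Lss in 5 in the Pkd2 model. Hmgcs1 and Insig2 each lost it in 11 in the control comparison.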
